A study of Homo sapiens with 4 samples.

Results

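The circles described here are circular RNAs (circRNAs) that were read in both DIS3 knock-down libraries and in neither control library. A member had a backsplice level of at least 0.1 FPBcirc in DIS3 KD replicates 1 and 2 and 0 in control replicates 1 and 2. FPBcirc counts fragments across the backsplice junction per gigabase of mapped sequence, as deposited by the authors. The rule chose 466 of 45182 listed circRNAs, from 404 host genes. The level in KD and the absence from the controls are therefore how the circles were chosen. They are given below as a description, with no test.

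DIS3 KD and control cells are both derived from Flp-In T-REx 293, an established embryonic kidney line built for inducible transgenes at a fixed genomic site. DIS3 KD cells are clone 8, in which the endogenous DIS3 gene was disrupted with CRISPR/Cas9 and some DIS3 remains without induction. Control cells are the line without that disruption. All cells of both groups carry an integrated, inducible Flag-HA DIS3 copy and were grown with blasticidin and hygromycin B, and the column names mark every library as grown without doxycycline. Each group has 2 libraries, labelled biological replicates, of rRNA-depleted total RNA. The KD arm is 1 clone, so clone and DIS3 depletion cannot be told apart, and p-values below measure the spread between these libraries alone.

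A circRNA forms when the spliceosome joins the end of an exon to the start of the same or an upstream exon, and the loop that results has no free end for an exonuclease to enter. One gene can give many circles that share one of the joined positions and differ in the other. DIS3 is a ribonuclease with an exonuclease and an endonuclease activity and is the main catalytic subunit of the nuclear RNA exosome. The study profiled circles to find candidates whose level depends on DIS3.

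Depth bears on every value below, because the groups were not sequenced alike. Recovered backsplice reads numbered 352471 and 121507 in the KD libraries, on 165 and 47.9 mapped gigabases, against 48895 and 55193 in the controls, on 19.6 and 20.4. A single read therefore weighed 0.00604 and 0.0209 FPB in KD and 0.0511 and 0.0489 in controls, and the threshold of 0.1 FPB means at least 17 and 5 KD reads. Zero reads over both controls allow a level of up to 0.0750 FPB (3 reads). Such limits cover counting error only, as the reads carry no molecular identifiers. The 2 DIS3 circles had 7 and 2 reads in KD and 0 in both controls, which is too few to check the knock-down. Linear DIS3 RNA was 11.7 and 15.9 FPB in KD and had no value in either control, so it allows no comparison. Of the marker genes of this line, IGF2BP1 and IGF2BP3 gave linear RNA in all 4 libraries, and LIN28B, SALL2 and the leukocyte, fibroblast and liver markers PTPRC, COL1A1 and ALB had no value here, since a linear value needs a circle.

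No junction sequence was used here, so the circles are given by position on hg38. Of the 466 members, 4 span an annotated microRNA gene, of 1562 hairpins searched in RefSeq (GRCh38.p14), each on the strand of the host. No such count is given for other circles, so the number cannot be called high or low. The 7 mature microRNAs listed for these genes are shown because they lie between the joined positions of a KD-only circle. For MIR766 the 5p product alone is listed. Capitals mark the seed, bases 2 to 8, and the 7 seeds are all different.
hsa-miR-6803-5p: cUGGGGGUggggggcugggcgu
hsa-miR-6803-3p: uCCCUCGCcuucucacccucag
hsa-miR-766-5p: aGGAGGAAuuggugcuggucuu
hsa-miR-6780a-5p: uUGGGAGGgaagacagcuggaga
hsa-miR-6780a-3p: cUCCUCUGuuuucuuuccuag
hsa-miR-6868-5p: aCUGGCAGaacacugaagcagc
hsa-miR-6868-3p: uUCCUUCUguugucugugcag
MIR6803 (chromosome 19, 55245186 to 55245250) lies inside the circle of PPP6R1, a regulatory subunit of protein phosphatase 6, which stood at 0.338 and 0.417 FPB in KD. MIR766 lies inside a circle of the cytoskeletal septin gene SEPTIN6 at 0.133 and 0.209 FPB. MIR6780A lies inside a circle of the histone methyltransferase gene EZH1 at 0.127 and 0.125 FPB, and MIR6868 inside one of the exocyst gene EXOC7 at 0.145 and 0.104 FPB. All 4 circles had 0 control reads, and whether the mature circle keeps the microRNA sequence is not known from these data.

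Most members were low. The mean KD level had a median of 0.188 FPB and quartiles of 0.144 and 0.255, and it reached 1.79 FPB. In reads, the median member had 27 in KD replicate 1 and 10 in KD replicate 2. At its KD level, the median member would correspond to 7.53 reads over both controls together, and the lowest member to 4.14. The KD mean lay at least 2-fold above the 0.0750 FPB limit for 334 members, at least 5-fold for 51 and at least 10-fold for 9. The higher of the KD libraries was replicate 2 for 280 members (60.1%), and the libraries lay within 1.5-fold of each other for 283 (60.7%). Among circles at 0.1 FPB or more in both KD libraries that were also read in a control, these shares were 70.0% and 59.7%.

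The threshold cuts through a dense range of levels. The members nearest to it were circles of NCOA4, TASOR2 and GANAB, each with 17 reads (0.103 FPB) in KD replicate 1, and with 7, 7 and 5 reads in replicate 2. Just outside it were circles of FGFR2, IDE and HINFP, each with 16 reads (0.0967 FPB) in KD replicate 1 and 9, 12 and 6 in replicate 2. At a threshold of 0.05 FPB the rule would choose 1243 circles, at 0.2 FPB 114, and at 0.5 FPB 14.

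The count also rests on each library. Without KD replicate 1 the rule would choose 1629 circles and without KD replicate 2 it would choose 821. Without control replicate 1 it would choose 853, and without control replicate 2 it would choose 862. Of 2868 circles at 0.1 FPB or more in both KD libraries, 16.2% were members, and of all listed circles 1.03%. Of 2177 circles at 0.1 FPB or more in both controls, 47 (2.16%) had 0 reads in both KD libraries. A 0 in KD excludes lower levels than a 0 in a control, since the KD libraries were deeper, so these shares are not measured alike.

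The share of KD circles that were absent from both controls fell with level. It was 26.9% (255 of 947) for a KD mean of 0.1 to 0.2 FPB, 17.3% for 0.2 to 0.35 FPB and 10.3% for 0.35 to 0.5 FPB. It was 3.85% for 0.5 to 1 FPB and 1.14% (3 of 264) for 1 FPB or more. The opposite shares, of control circles with no KD read, were 9.06%, 2.16%, 0.559%, 0.587% and 0% (0 of 386) over the same ranges of level.

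**Figure D1:**
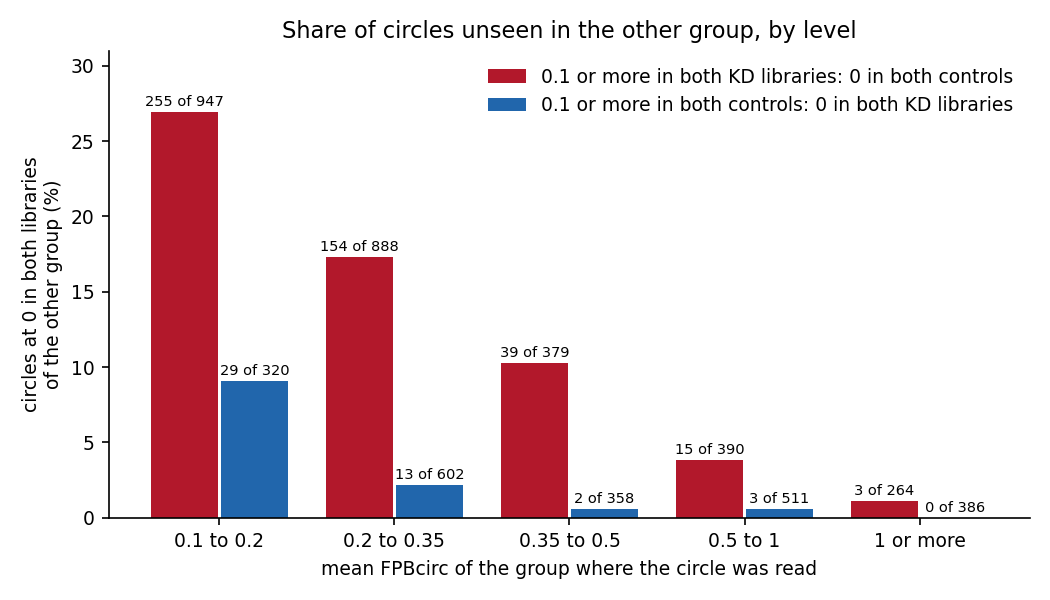
Bars give the percent of circles with 0 reads in both libraries of the other group, against the mean FPBcirc in the group where they reached 0.1 in both libraries, with counts above the bars. The share of KD circles absent from both controls is 26.9% in the lowest range and 1.14% in the highest.

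The control libraries also missed circles of each other. Of circles at 0.25 FPB or more in KD replicate 1, 2.44% had 0 reads in KD replicate 2, and 1.42% in the other direction. Of circles at that level in control replicate 1, 33.5% had 0 reads in control replicate 2, and 31.8% in the other direction. At 1 FPB or more the shares were 0.917% and 0.656% between the KD libraries and 4.67% and 4.14% between the controls. At 0.5 FPB or more they were 1.37% and 0.379% between the KD libraries and 12.1% and 13.0% between the controls. All these shares are of a 0 in 1 library, while the rule asks for 0 in both controls. The median member, with a KD mean of 0.188 FPB, lay under the levels given here. The part of depth and of control scatter in the member list was not tested.

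Only 3 members averaged 1 FPB or more in KD. The highest was a circle of TBCD, a cofactor that folds tubulin (chromosome 17, 82903405 to 82911789), with 1.51 and 2.07 FPB in KD. PLPBP, a pyridoxal phosphate-binding protein gene, had a circle of 830 bases in span at 0.913 and 1.61 FPB. The circle of WDR1, which helps cofilin take actin filaments apart (chromosome 4, 10097711 to 10103986), stood at 0.792 and 1.25 FPB. All 3 had 0 control reads, and their KD means were at least 23.8-fold, 16.8-fold and 13.6-fold above the limit of 3 reads over both controls.

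The rest of the 24 highest members are given by the role of the host and not by level, grouped after their values were seen. Among mitochondrial proteins, OMA1, a protease of the inner membrane (chromosome 1, 58506060 to 58539310), had a circle at 0.816 and 1.04 FPB. MRPS35, a protein of the small mitochondrial ribosomal subunit (chromosome 12, 27714780 to 27724186), had one at 0.725 and 0.856 FPB. The circle of NADK2, the mitochondrial NAD kinase (chromosome 5, 36211844 to 36227565), had 0.653 and 0.334 FPB. In these circles the KD libraries differed by less than 2-fold, and the controls held 0 reads.

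Among membrane proteins, RYR2, a calcium release channel (chromosome 1, 237369534 to 237388183), had a circle at 0.755 and 0.960 FPB. LDLRAD3, of the LDL receptor family, had one of 346 bases in span (chromosome 11, 36227085 to 36227430) at 0.894 and 0.689 FPB. For ERBB2, a receptor tyrosine kinase (chromosome 17, 39708321 to 39710481), the values were 0.635 and 0.918 FPB. The transporter genes ANKH (chromosome 5, 14741827 to 14758598; 0.490 and 0.689 FPB) and SLC43A1 (chromosome 11, 57491224 to 57491862; 0.586 and 0.522 FPB) also stood among the 24 highest.

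Among RNA-binding and translation genes, the circle of EEFSEC, the elongation factor for selenocysteine (chromosome 3, 128262128 to 128264781), had 0.876 and 0.689 FPB in KD. RALY, an hnRNP protein (chromosome 20, 34072066 to 34078553), had 0.665 and 0.605 FPB. DHX35, a DEAH-box helicase (chromosome 20, 38983699 to 38994880), had 0.574 and 0.647 FPB. For these circles the KD libraries stayed within 1.5-fold of each other. Wider gaps were seen for FIP1L1, a subunit of the cleavage and polyadenylation factor (chromosome 4, 53425872 to 53444103; 0.344 and 0.772 FPB), and for the translation scaffold EIF4G3 (chromosome 1, 21002713 to 21111383; 0.338 and 0.626 FPB). RBM33, an RNA-binding protein gene (chromosome 7, 155737530 to 155745602), had 0.477 and 0.522 FPB.

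Among chromatin genes, CHAF1A, the large subunit of chromatin assembly factor 1 (chromosome 19, 4405912 to 4409759), had 0.592 and 0.584 FPB in KD. PHC3, a Polycomb protein (chromosome 3, 170145423 to 170149244), had 0.616 and 0.543 FPB. SFMBT2, another Polycomb-associated protein (chromosome 10, 7248548 to 7285954), had 0.399 and 0.564 FPB. The remaining circles of the 24 came from the exocyst gene EXOC6 (0.459 and 0.710 FPB), GPATCH2L (0.357 and 0.710), PCNX2 (0.296 and 0.668) and the presynaptic scaffold gene RIMS1 (0.187 and 0.772). As a ratio, the RIMS1 values are the farthest apart of the 24, with 31 and 37 reads at depths of 165 and 47.9 mapped gigabases.

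**Figure D2:**
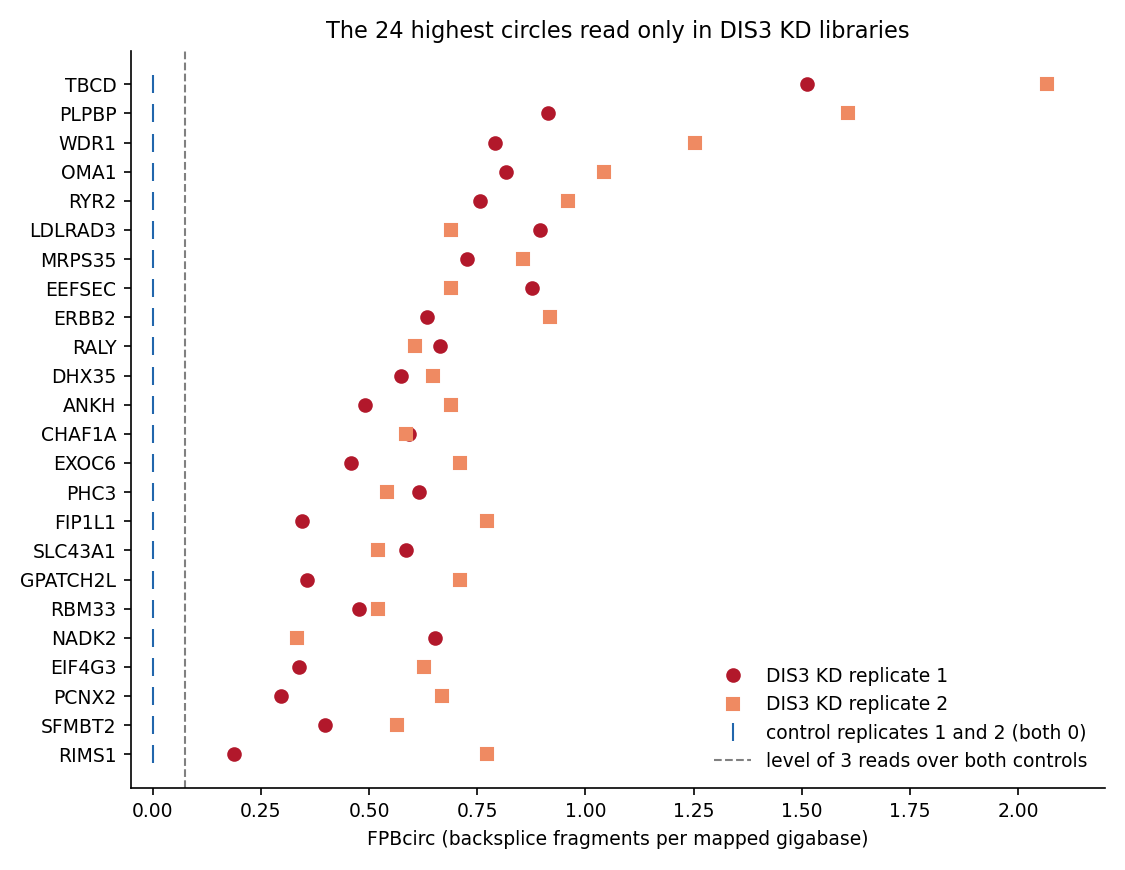
Points give FPBcirc of the 24 members with the highest KD mean in DIS3 KD replicates 1 and 2, ticks mark the controls, all at 0, and the dashed line is the level of 3 reads over both controls. KD values run between 0.187 FPB (RIMS1) and 2.07 FPB (TBCD), all right of the line.

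Members were spread thinly over hosts. Of the 404 hosts, 354 gave 1 member, 41 gave 2, 6 gave 3 and 3 gave 4. The hosts with 4 were EIF4G3, PCNX2 and EHMT1, a histone H3K9 methyltransferase gene. The EIF4G3 members reused a few positions: 2 began at 21002713, 2 ended at 21111383 and 2 ended at 21089213. In PCNX2, 2 ended at 233208689 and 2 began at 233217899. In EHMT1, 2 began at 137790848 and 2 at 137710967, and the 4 EHMT1 circles had 0.145 to 0.218 FPB in KD replicate 1 and 0.146 to 0.188 in replicate 2. Circles of one host share positions and are not independent of each other.

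For most members the host itself was not silent as a source of circles in control cells. Another circle of the host was read in a control for 365 of 466 members (78.3%), and for 308 of the 404 hosts. Among the 2402 circles at 0.1 FPB or more in both KD libraries that were also read in a control, the share with another control-read circle of the host was 87.1%. The remaining 96 member hosts gave no control read on any circle, among them PLPBP, WDR1, MRPS35, EEFSEC, SLC43A1 and RIMS1. In these 6 the member made up 77.4% (EEFSEC) to 99.2% (PLPBP) of the summed KD circle signal of the host. Over all members the median share of the host signal was 32.6%, and 246 members (52.8%) were the highest circle of their host in KD. For KD circles also read in a control these values were 39.2% and 61.9%. With a KD mean under 0.35 FPB they were close, at 29.8% and 51.6% for members and 29.9% and 52.9% for the others.

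Members often used a backsplice position that control cells used too. The start or the end was shared with another control-read circle of the host for 274 members (58.8%), and both were shared, with different circles, for 60 (12.9%). Among KD circles also read in a control the shares were 73.3% and 25.4%. Restricted to a KD mean under 0.35 FPB, where levels are closer, they were 58.9% for 409 members against 70.5% for 1426 others. Members of this level range had hosts with a median of 12 control reads on their other circles, against 19 for the others. Whether these shares follow the number of host circles that the controls could show was not tested.

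The members of WDR37 and TRIM2 differed from a control-read circle by 3 bases at the start alone. The WDR37 member (chromosome 10, 1103602 to 1105267) had 33 and 11 KD reads, and the circle that begins at 1103599 had 109 and 16 KD reads and 4 and 0 control reads. The TRIM2 member (chromosome 4, 153270338 to 153276130) had 22 and 10 KD reads, and the circle that begins at 153270335 had 55 and 17 KD reads and 0 and 2 control reads. No other member had a control-read circle within 10 bases at both ends.

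Setting a member beside the highest other circle of its host shows how different the pairs can be. In OMA1 both circles begin at 58506060. The circle ending at 58536741 had 0.768 and 1.13 FPB in KD and 4.04 and 3.82 FPB in controls (log2 fold change -2.04, SE 0.34, limma adjusted p = 0.0577). The member, which ends further along the chromosome at 58539310, had 135 and 50 KD reads, close to the 127 and 54 KD reads of the other. In controls the other circle had 79 and 78 reads and the member 0. Linear OMA1 RNA was 2.78 and 2.12 FPB in KD and 3.14 and 3.88 FPB in controls (limma adjusted p = 0.115). Over the alternatives the adjusted p of the other OMA1 circle lay between 0.000268 (DESeq2) and 0.614 (limma without KD replicate 1), with lower KD values in each.

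In TBCD and MYBL2 the highest other circle gave the opposite picture. The highest other TBCD circle (82763965 to 82781721) had 4.27 and 5.89 FPB in KD and 1.94 and 1.03 FPB in controls (log2 fold change 1.80, SE 0.39, limma adjusted p = 0.0862). TBCD circles with the same start varied, with log2 fold changes of 0.57 (ending at 82772507), 0.25 (82814934) and -0.39 (82800996). The circle at 82870224 to 82911789 had 2.14. A further TBCD circle, which ends with the member at 82911789 and begins at 82900651, had 998 reads in KD replicate 1 and 0 in KD replicate 2 and in both controls, so the rule left it out. In MYBL2, a cell cycle transcription factor gene, the member (chromosome 20, 43702490 to 43702903) had 0.471 and 0.230 FPB in KD. Its neighbour with the same start, ending at 43705358, had 248 and 66 reads in KD and 0 and 2 reads in controls (1.44 FPB and 0.0489 FPB on average; limma adjusted p = 0.0616). In each of these genes, both KD values of the highest other circle exceeded both control values, and the limma fit did not pass the threshold. Over the alternatives, apart from those with a control library left out, its adjusted p lay between 1.46e-09 (DESeq2) and 0.624 (limma without KD replicate 1) in TBCD, and between 2.19e-05 (limma with no filter) and 0.811 (limma without KD replicate 1) in MYBL2.

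In RBM33 and SFMBT2 the values of the highest other circle overlapped between the groups. The highest other circle of RBM33 (155672867 to 155680908) had 3.71 and 5.51 FPB in KD and 4.91 and 4.11 FPB in controls (log2 fold change 0.01, SE 0.31, limma adjusted p = 0.986). That of SFMBT2 (7276892 to 7285954) ends where the member ends and had 3.29 and 5.22 FPB in KD and 3.68 and 4.50 FPB in controls (log2 fold change 0.03, SE 0.32, limma adjusted p = 0.972). In both genes the KD and control values overlap, while the member had 25 to 79 KD reads and 0 control reads. With edgeR on the recovered reads the log2 fold changes were 0.67 for RBM33 and 0.70 for SFMBT2 (edgeR adjusted p = 0.18 and 0.158), so the size of these values depends on the scaling. Further RBM33 circles differed from the highest one. The circle at 155706860 to 155718443 had 1.11 and 1.36 FPB in KD and 0 and 0.0489 FPB in controls (log2 fold change 4.54, limma adjusted p = 0.0577). That at 155665175 to 155680908 had 0.218 and 0.459 FPB in KD and 0.818 and 1.03 FPB in controls (log2 fold change -1.43). For RYR2 the other circle (237566567 to 237569319) had 1.09 and 1.27 FPB in KD and 0 and 0.489 FPB in controls, so 1 control held 10 reads and the other 0. Its log2 fold change was 3.17 (SE 1.15) and did not pass the limma threshold. It was 1.21 without control replicate 1, and without control replicate 2 the remaining control is at 0, so no fold is given.

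**Figure D3:**
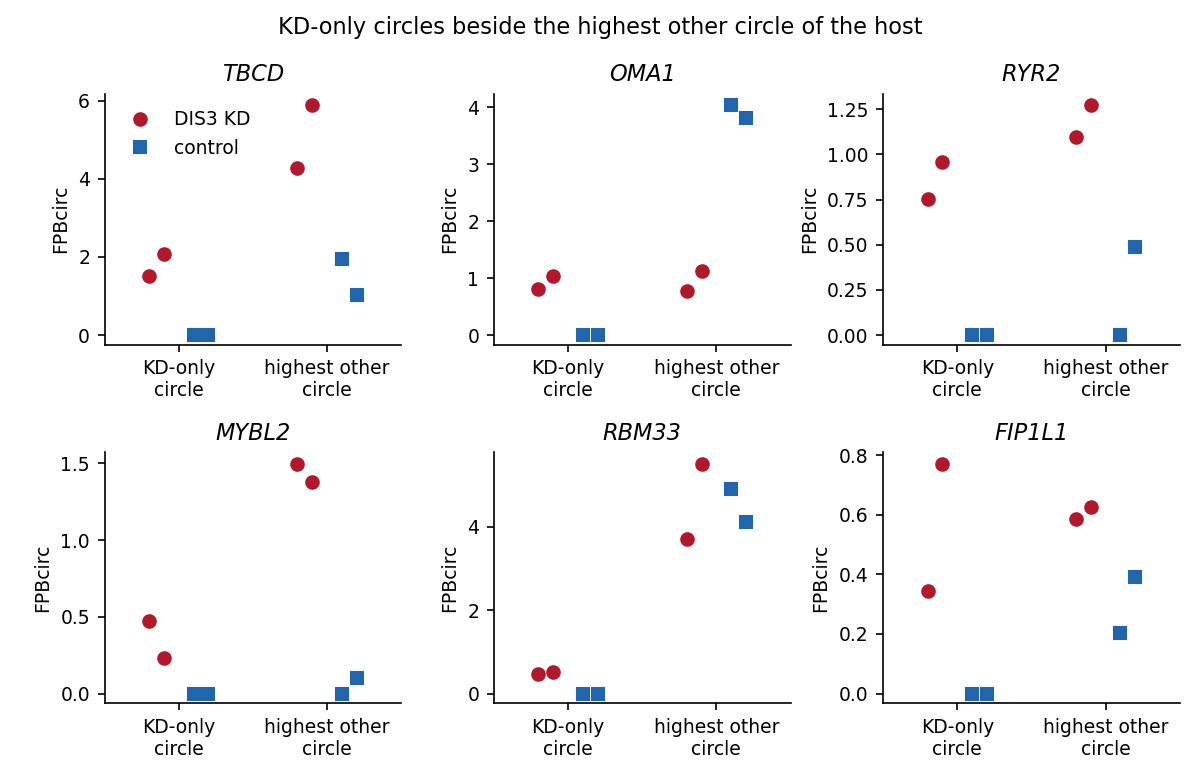
Each panel plots FPBcirc of the member and of the highest other circle of its host in DIS3 KD (red circles) and control (blue squares) libraries. The other circle is lower in KD in OMA1 (0.768 and 1.13 against 4.04 and 3.82 FPB), higher in TBCD and overlapping in RBM33.

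Over the member hosts together, 4781 other circles were listed, 4409 read in KD and 1533 in a control. Of these, 386 from 176 hosts passed the abundance filter of the fit over all circles (a mean of at least 0.174 FPB). Limma called 0 higher and 0 lower, against 0.0824% higher and 0.453% lower of all 2427 circles tested, and at an unadjusted p under 0.05 it gave 29 higher and 33 lower, of 124 and 340 over all circles. edgeR on the recovered reads called 0, and DESeq2 called 31 higher and 7 lower, of 173 and 65 over all circles. The median log2 fold change was 0.04 for these circles and -0.33 for all, and 51.3% against 40.4% had a higher KD value. With each library centred on its median these medians were 0.53 and 0.17. With control replicate 1 left out the limma calls became 65 higher and 46 lower, of 321 and 440 over all circles. With control replicate 2 left out they became 61 and 32, of 350 and 337. The lone control library is then assumed to vary like the KD libraries. Of the members themselves 57 passed the same filter, and they could pass it through their KD values alone.

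Linear RNA of the host (FPBlinear) comes from non-backspliced reads, which the rule did not use. No column lists it: it was derived from FPBcirc and CIRCscore under an assumed formula with an offset of 0.01. The host value is the median over the circles read in that library. Members thus enter it in KD alone, and the set of circles can differ between the groups. A value in all 4 libraries existed for 233 of the 404 hosts, since the deposited ratio exists only where a circle was read. Limma called 54 of them higher in KD (23.2%) and 23 lower (9.87%), against 11.3% higher and 24.3% lower of all 2547 host genes tested. The median log2 fold change was 0.17 for member hosts and -0.17 for all hosts, and 60.1% of member hosts had a higher KD value. These hosts were picked by a circle seen in KD in the same libraries, so the shares describe the hosts and give no test of them. Centring each library on its median moved the median of all hosts to -0.01 and gave 99 higher and 24 lower, of 553 and 582 over all hosts. Leaving out a control library lowered the calls to 17 higher and 6 lower (replicate 1; 75 and 244 over all hosts) or 25 and 4 (replicate 2; 123 and 180). Leaving out a KD library gave 49 and 10 (replicate 1; 276 and 368 over all hosts) or 59 and 42 (replicate 2; 302 and 915).

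Named hosts with higher linear RNA in KD cover several roles. The transcriptional corepressor gene CTBP1 had 42.9 and 28.5 FPBlinear in KD and 11.3 and 15.7 in controls (log2 fold change 1.31, SE 0.26, limma adjusted p = 6.92e-06). KDM4B, a histone demethylase gene, had 9.48 and 7.36 in KD and 2.75 and 3.18 in controls (log2 fold change 1.20). GASK1A had 2.56 and 2.18 in KD and 0.153 and 0.310 in controls (1.30). Its control values lay under the pseudocount of 1.22, as did those of ZNF536 (1.06 and 0.893). The zinc finger genes ZNF536 (1.26) and ZFHX3 (1.21), the proprotein convertase gene PCSK6 (1.33), SIPA1L3 (1.27) and the unnamed gene ENSG00000285991 (1.84) also rose. Their limma adjusted p lay under 0.05 here and without any 1 of the 4 libraries, and in each the KD values lay above both controls.

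Fewer member hosts fell. VRK1, a nuclear kinase gene with 2 members, had 7.93 and 20.5 FPBlinear in KD and 38.8 and 42.6 in controls (log2 fold change -1.57, SE 0.26, limma adjusted p = 1.24e-07). The KD libraries differ in size of change, with a log2 fold change of -2.19 from KD replicate 1 alone and -0.95 from KD replicate 2 alone. XRCC5, the Ku80 subunit of double-strand break repair, had 51.3 and 64.4 in KD and 122 and 122 in controls (-1.07), and the mismatch repair gene MSH3 had 2.82 and 4.07 in KD and 7.87 and 8.37 in controls (-1.01). RTN4, which shapes the endoplasmic reticulum, fell with a log2 fold change of -1.12. The chaperonin gene CCT4 (-0.86), SUCLG1 of the citric acid cycle (-0.81), the sorting nexin gene SNX6 (-0.78) and the kinase gene NEK1 (-0.75) fell too, but each of these 4 missed the threshold without at least 1 library. In these hosts, circles absent from the controls stood beside linear RNA that was lower in KD.

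**Figure D4:**
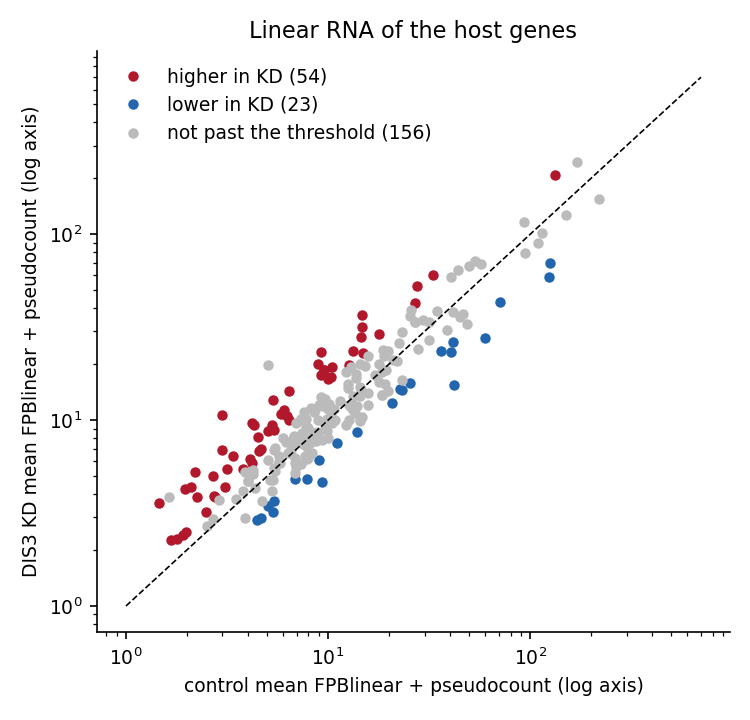
Each point is a member host, with the mean FPBlinear plus the pseudocount in DIS3 KD on the y axis and in controls on the x axis, both on log axes, and the dashed line marks equal values. Red points (54) passed the threshold above the line, blue points (23) below it.

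CIRCscore, the deposited ratio of circle to linear host signal, set most members far below their host. The mean KD CIRCscore had a median of 0.0224 and quartiles of 0.0104 and 0.0448. It was under 0.01 in both KD libraries for 98 members (21.0%) and over 0.1 in both for 37 (7.94%). Among KD circles also read in a control the median was 0.0405, and these shares were 11.3% and 19.0%. With both classes held to a KD mean under 0.35 FPB the medians were 0.0199 and 0.0254. The share under 0.01 was then 23.5% for members and 16.6% for the others, and the share over 0.1 was 6.36% and 6.59%. The linear signal under the members had a median of 9.56 FPB in that range, against 8.58 for the others.

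The lowest ratios belonged to hosts with abundant linear RNA. A circle of RACK1, a ribosomal scaffold protein gene, had CIRCscores of 0.000242 and 0.000564 beside 590 and 573 FPBlinear in KD. That of SENP3-EIF4A1 had 0.000485 and 0.000388, and since this readthrough gene overlaps EIF4A1, linear reads of the genes may not be separable. GANAB, a glucosidase subunit of the endoplasmic reticulum, had 0.00110 and 0.00118, and citrate synthase (CS) 0.00134 and 0.00121. These circles lay between 0.103 and 0.313 FPB in KD.

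High ratios rested on derived linear values near 0. The circle of SPG7, a mitochondrial protease subunit gene (chromosome 16, 89544648 to 89548113), had CIRCscores of 20.9 and 17.7, at which the derived linear RNA is 0 in both KD libraries. The size of such a score is set by the offset of 0.01, and a 0 can be a failed estimate for a gene that most cells use. RIMS1 had 2.90 and 5.98 on derived linear RNA of 0.0581 and 0.121 FPB. For ST3GAL6, a sialyltransferase gene, and GARS1-DT the ratio differed widely between the libraries, at 9.21 and 0.114 and at 0.129 and 11.4. Away from such values, the OMA1 circle had 0.296 and 0.495 and the PLCXD1 circle of chromosome X had 0.401 and 0.778. PLCXD1 lies in the region shared by chromosomes X and Y and is listed at both places with the same coordinates, so reads of these 2 members cannot be placed with certainty.

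The spans of members lay close to those of other circles. The median genomic span was 7560 bases with quartiles of 2555 and 17204, against 8105, 2563 and 18588 for KD circles also read in a control. Spans under 1 kb made up 12.2% and 11.7%, and spans over 100 kb made up 1.07% and 0.958%. The longest members were circles of CUX1, a homeobox gene (279489 bases), DENND1A (121319 bases) and the centriole gene CEP192 (118223 bases). Among the shortest were circles of PSMG3 (237 bases) and CNTROB (259 bases). Levels at both extremes lay within the range of the other members, with 0.127 and 0.125 FPB in KD for CUX1 and 0.103 and 0.167 FPB for PSMG3.

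**Figure D5:**
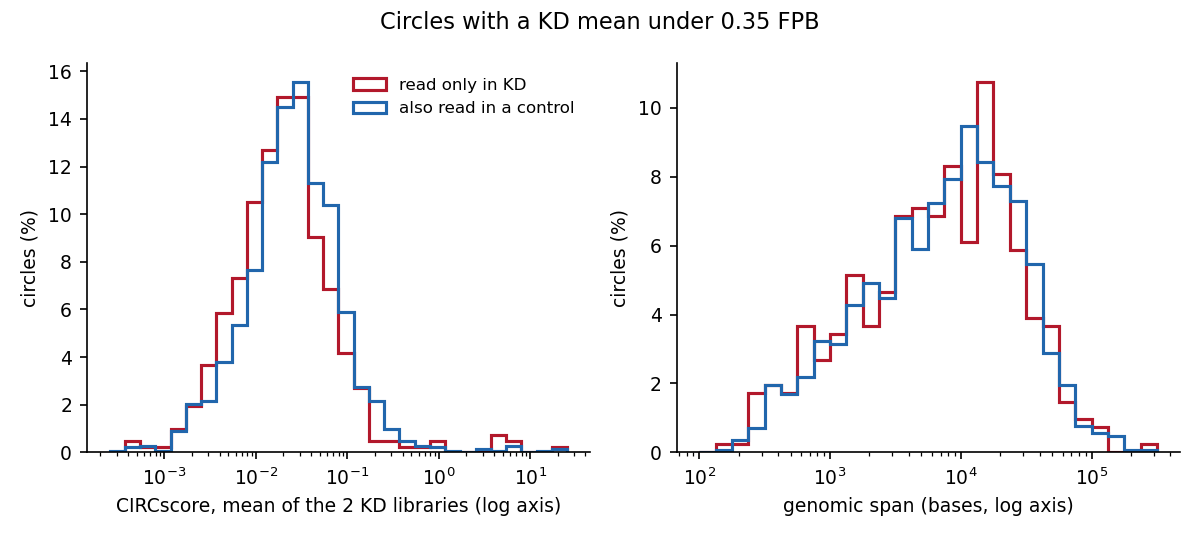
Step lines give the percent of circles by mean KD CIRCscore (left) and genomic span in bases (right), both on log axes, for members and for circles also read in a control, all with a KD mean under 0.35 FPB. Median CIRCscores are 0.0199 and 0.0254, and the span curves largely overlap.

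Within the gene, members began somewhat further downstream. For 377 members with a strand in RefSeq (GRCh38.p14), the circle's 5' boundary lay at a median of 44.6% of the gene length, against 38.3% for 1964 KD circles also read in a control. It lay in the first 20% of the gene for 14.3% against 21.3%. With a KD mean under 0.35 FPB the medians were 44.9% and 39.5%. The median member covered 7.03% of its gene, against 8.24%. Of 450 members with a RefSeq type, 443 had a protein-coding host, 4 a long noncoding RNA and 3 a pseudogene, close to the 98.4% protein-coding share of the others.

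Chromosomes contributed 3 (X) to 47 (chromosome 1) members each, apart from chromosome Y. Read against the KD circles of each chromosome, the member share was 21.8% on chromosome 3, 20.9% on chromosome 19, 20.6% on chromosome 8, 20.5% on chromosome 21 and 20.2% on chromosome 7. It was 9.94% on chromosome 5, 9.91% on chromosome 15, 9.23% on chromosome 18 and 5.77% on chromosome X, beside 16.2% over all.

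By host gene list, members were found in all 11 lists, and 130 members belonged to at least 1. Shares are of the circles at 0.1 FPB or more in both KD libraries, beside 16.2% over all circles. Membrane trafficking had 18 of 86 (20.9%), with EXOC6 (0.584 FPB, mean of KD), TBC1D22A and SNX6 among them. Translation, mRNA decay and exosome genes had 14 of 71 (19.7%), of which 4 were EIF4G3 circles, and splicing and RNA processing had 11 of 58 (19.0%). Chromatin regulators had 21 of 129 (16.3%), with 4 from EHMT1 and 3 from SMARCC1, a subunit of the BAF remodelling complex, and microtubule, centrosome and motor genes had 13 of 81 (16.0%). These 5 shares lie between 16.0% and 20.9%.

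Lower shares were found elsewhere. DNA replication, repair and cell cycle genes had 10 of 76 (13.2%), the ubiquitin system 12 of 94 (12.8%), kinases and phosphatases 14 of 112 (12.5%), zinc finger genes 9 of 78 (11.5%) and nuclear pore and transport genes 5 of 50 (10.0%). Hosts of much studied circles had 9 of 132 (6.82%). Further leading members of the lists were circles of ERBB2 (kinases), NUP160 (nuclear pore; 0.387 and 0.459 FPB), ZNF652 (zinc finger; 0.236 and 0.417 FPB), KDM4B (chromatin; 0.357 and 0.334 FPB) and MYBL2 (cell cycle). All had 0 control reads. The list shares are not matched for level, and over all circles the member share fell with KD level. No list was tested against the others.

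In linear RNA, 3 of 11 measured member hosts among chromatin regulators were higher in KD (ARID1B, EHMT1 and KDM4B) and 0 lower. Among DNA replication, repair and cell cycle hosts 1 of 8 was higher (MYBL2) and 3 lower (MSH3, PDS5B and XRCC5). Kinases and phosphatases had 2 higher and 3 lower of 12, and membrane trafficking 2 and 3 of 13. Microtubule genes had 1 (TBCD) and 2 of 10, ubiquitin genes 2 and 0 of 8, and zinc finger genes 2 and 0 of 5. Splicing genes had 1 and 1 of 9, hosts of much studied circles 1 and 1 of 7, translation genes 0 and 1 (EIF4G3) of 6, and nuclear pore genes 0 and 0 of 3. All calls are by limma over all hosts, whose shares were 11.3% higher and 24.3% lower. Over the 233 member hosts measured, the shares were 23.2% higher and 9.87% lower.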

How the data were processed

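Bowtie2 2.3.5, bcl2fastq 2.20 and the hg38 build are named, with no role, per the submitters' processing notes. No circRNA caller is named in the labels or headers. The authors deposited FPBcirc, a depth-normalised signal per circRNA, and CIRCscore, a ratio of FPBcirc to the linear host signal. Fold changes between group means, a ratio in the deposited table, were not used. Reads and depth were recovered from FPBcirc steps: 100% of values were whole reads within 0.001. Start positions were converted to count from 1. The formula of CIRCscore is not stated. FPBlinear was derived on the assumption that CIRCscore is (FPBcirc + 0.01) / (FPBlinear + 0.01), with the median over circles of a host, so values near 0 depend on the offset. With it, 34.0% to 49.8% of derived values under 20 reads were whole reads within 0.01, against 0.949% to 3.68% with 4 other offsets. Limma 3.58.1 in R 4.3.3 (trend, robust, two-sided, Benjamini-Hochberg adjusted p under 0.05) was fitted to log2(FPBcirc + 0.0349) for 2427 circRNAs and to log2(FPBlinear + 1.22) for 2547 hosts, after a test on simulated data; these scales understate changes of low values. edgeR 4.0.16 and DESeq2 1.42.0 on recovered reads, a replicate block, left-out libraries, and other pseudocounts, filters and scalings were alternatives. An exact permutation test of 2 against 2 libraries cannot give a p below 0.333 and was not used. Of the 404 hosts, 390 matched a RefSeq symbol.

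Named were the 24 members with the highest KD mean, hosts with most members, extremes of span and CIRCscore, the top member of each list, circles around the threshold, the highest other circle of a named host, and the 8 largest rises and falls in linear RNA; some of these are not reported here. WDR37, TRIM2 and list members other than the top one were chosen after their values were seen. Members and lists were chosen with earlier results of these data known. Figures were drawn with matplotlib 3.10.9.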

Additional observations from a re-analysis of the deposited data

How the results depend on the processing

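The number of members was 466 and moved with nearly every setting. It was 1243, 114 and 14 at thresholds of 0.05, 0.2 and 0.5 FPB and 2336 with at least 3 reads in each KD library, and leaving out 1 library gave 821 to 1629. Allowing 1 read over both controls gave 559. Among other circles of the member hosts the main limma fit called 0 higher and 0 lower. With double the pseudocount it called 3 and 0 (7 and 13 over all circles). With a filter of 10 reads it called 9 and 15 (31 and 160 over all 1173 tested). With no filter it called 10 and 5 (48 and 61 over all 45182). DESeq2 called 31 and 7, and leaving out 1 library gave 0 to 65 higher and 0 to 46 lower. For linear RNA of the hosts (54 and 23), library median centring gave 99 higher, and leaving out 1 library gave 17 to 59 higher and 4 to 42 lower. The replicate number as a block gave 10 higher and 8 lower other circles (36 and 98 over all circles). For hosts the block gave 74 higher and 36 lower (391 and 820 over all hosts). The labels do not say that the numbers mark a shared batch, and deviations of same-numbered libraries correlated at 0.00289 for FPBcirc and 0.065 for linear RNA. All 16 named hosts kept their direction under every setting run, and 10 of their results missed the threshold, all without 1 library. Over all circles limma gave 2 higher and 11 lower, and DESeq2 173 and 65. The cause of these moves was not tested. Depth also limits the list: by counting error alone, 0 reads over both controls allow up to 0.0750 FPB, and 132 members lie within 2-fold of it. The controls missed circles above that level too. Of circles at 0.25 FPB or more in control replicate 1, 33.5% had 0 reads in control replicate 2.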
